A study of Homo sapiens with 6 samples.

Results

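The genes described here are 46 lysosomal genes: cathepsins, glycosidases and sulfatases, lipid hydrolases and their activators, membrane proteins of the lysosome, and the subunits of its proton pump. They were picked by symbol from the 26485 gene symbols of an RNA sequencing table, with earlier results of these data known. The table covers THP1, a human cell line from acute monocytic leukemia, treated for 6 h with withaferin A (WFA), a steroidal lactone of the plant Withania somnifera, or with its solvent DMSO. There were 3 DMSO and 3 WFA libraries, from 3 independent experiments. The WFA dose is written as 1 mM in the sample labels and as 1 μM in the methods.

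Lysosomes degrade proteins, glycans and lipids with hydrolases that work at acid pH. The vacuolar ATPase (V-ATPase) keeps them acid: its cytosolic V1 sector burns ATP and turns a rotor that drives protons through the V0 sector in the membrane. Many lysosomal genes share a short palindromic element in their promoters, which is bound by the transcription factors TFEB, TFE3 and MITF. The kinase complex mTORC1, itself docked on the lysosome, holds these factors in the cytoplasm when nutrients are plentiful. Monocytic cells carry many lysosomes, and cathepsins also take part there in antigen processing.

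Total counts ran from 11006035 to 13872810 per library. All 10 myeloid markers examined, among them LYZ, SPI1 and CSF1R, had more than 3 reads in every library, with a summed level of 2694 to 3230 CPM (read counts scaled to a common library size with TMM factors) in DMSO and 2357 to 3150 CPM in WFA. LYZ made up most of that sum; taken singly, CD14 (−1.22), CD33 (−0.85), CEBPA (−0.58), CSF1R (−0.40) and SPI1 (−0.34) were called lower on the log2 scale with WFA by the test described below, CD68 (0.37) was called higher, and LYZ, ITGAM, FCGR1A and MPO did not pass. The part of these myeloid changes in the results was not tested. The 3 erythroid markers were at 0 throughout. Of the T cell markers, CD4, which monocytes express as well, carried nearly all of the signal. A fibroblast list summed to 0.563 to 1.17 CPM in DMSO and to 9.07 to 12.8 CPM in WFA, almost wholly through COL1A1 (3 to 10 reads against 106 to 135). COL3A1 and PDGFRA stayed at 6 reads or fewer, and the part of COL1A1 in the results below was not tested.

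In every functional class, most tested lysosomal genes were called higher after WFA. Of the 46 genes, 45 had enough reads to be tested, and NEU1, the lysosomal sialidase, had 1 read in all 6 libraries together. With edgeR's quasi-likelihood test and a Benjamini-Hochberg adjusted p under 0.05 over all 12854 genes tested, 32 of the 45 were called higher (71.1%), 1 was called lower (CTSC) and 12 did not pass. Among all genes tested, 25.8% were called higher and 24.7% lower. The median log2 fold change of the 45 genes was 0.42, with quartiles of 0.26 and 0.66, and that of all genes tested was 0.02. With TMM scaling, WFA changed about as many genes in each direction, whereas nearly all calls within the lysosomal genes were higher. With scaling by total counts, 2763 of all genes tested were called higher and 3875 lower, against 30 and 2 of the lysosomal genes. Because the lysosomal genes were picked with earlier results of these data known, their gap to all genes was not tested.

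The increases were modest in size. Of the 32 genes called higher, 16 rose by less than 1.5-fold, 13 by 1.5-fold to 2-fold, and 3 by more than 2-fold: MCOLN1, CTSL and SGSH. For 33 of the 45 genes, every WFA library lay above every DMSO library, for 2 genes (CTSC and ATP6V1B2) every WFA library lay below, and for 10 the groups overlapped; among all genes tested these shares were 29.6% above and 28.5% below. Reads of the 46 genes made up 0.890 ± 0.0236% of all counts in DMSO and 1.08 ± 0.0262% in WFA (SD, n = 3). Their summed level was 8651 ± 317 CPM against 11141 ± 271 CPM, with no overlap between the groups. In a whole-culture RNA measurement, a change in the transcripts of each cell and a change in the make-up of the culture cannot be told apart.

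**Figure D1:**
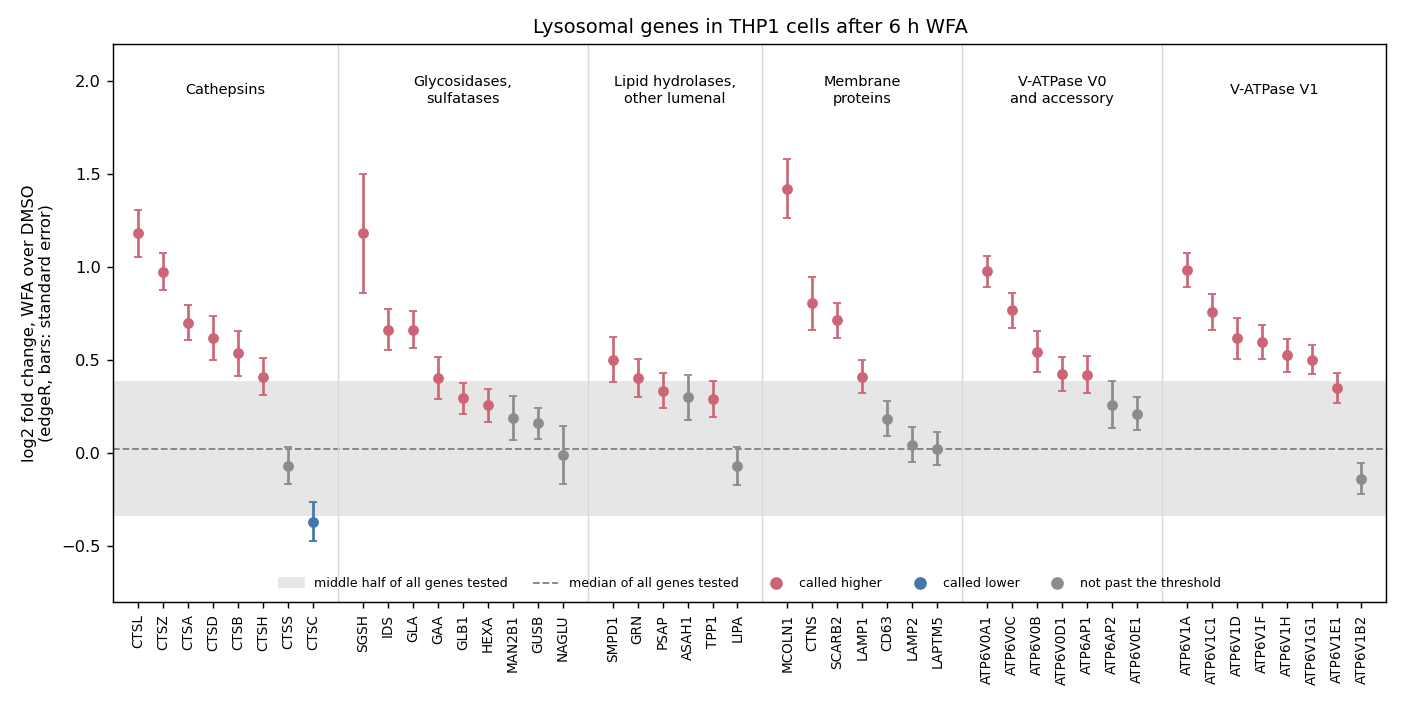
Log2 fold change (WFA over DMSO, edgeR; bars, standard error) of the 45 tested lysosomal genes, ordered by functional class; the dashed line and grey band are the median and interquartile range of all 12854 genes tested. Red points are called higher, the blue point (CTSC) lower and grey points did not pass the threshold; 32 points are red.

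The promoter element that the TFEB family binds is shown here because the genes moved together. RefSeq promoter windows (GRCh38.p14, 300 bases, 250 before to 50 after the start) were at hand for 33 of the 46 genes. The core E-box, CACGTG, was present in 10 of these 33 (30.3%), against 12.6% of the 9602 tested genes with a window. The longer palindrome TCACGTGA, which contains the E-box and reads the same on both strands, was present in 6 of 33 (18.2%), against 2.25% of tested genes with a window and 0.98% of all 35116 windows. The 110 bases around the start of these 6 genes (100 before, 10 after) are given below, 5′ to 3′ along the gene, with the longer palindrome in capitals.
ATP6V1G1, chr9:114587669-114587778 (plus strand): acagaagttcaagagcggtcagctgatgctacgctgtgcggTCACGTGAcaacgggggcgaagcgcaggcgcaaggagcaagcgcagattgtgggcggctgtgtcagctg
LAMP1, chr13:113297139-113297248 (plus strand): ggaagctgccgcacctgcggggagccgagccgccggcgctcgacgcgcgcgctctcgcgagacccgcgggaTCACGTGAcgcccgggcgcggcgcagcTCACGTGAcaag
ATP6V0D1, chr16:67481148-67481257 (minus strand): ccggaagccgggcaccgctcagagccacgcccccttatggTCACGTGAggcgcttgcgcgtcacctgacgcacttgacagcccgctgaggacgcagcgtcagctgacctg
GAA, chr17:80101481-80101590 (plus strand): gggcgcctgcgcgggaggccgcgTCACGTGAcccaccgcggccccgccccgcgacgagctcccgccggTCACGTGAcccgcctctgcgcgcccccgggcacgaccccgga
MCOLN1, chr19:7522524-7522633 (plus strand): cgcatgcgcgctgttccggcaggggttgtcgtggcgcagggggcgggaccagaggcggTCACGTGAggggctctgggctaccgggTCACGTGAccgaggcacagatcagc
CTSA, chr20:45891235-45891344 (plus strand): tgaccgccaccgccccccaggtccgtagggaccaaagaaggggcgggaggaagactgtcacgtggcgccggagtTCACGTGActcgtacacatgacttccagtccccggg
LAMP1, GAA and MCOLN1 each hold the longer palindrome at 2 places, and ATP6V1G1, ATP6V0D1 and CTSA at 1. All 6 genes were called higher, by 0.40 to 1.42 on the log2 scale with a median of 0.46. The 26 tested lysosomal genes whose window lacks the palindrome had the same median of 0.46, and 19 of them (73.1%) were called higher. Among all tested genes with a window, 33.8% of the 216 with the palindrome and 25.7% of those without it were called higher. For the core E-box there was no such gap: 25.1% of the 1211 tested genes with it and 26.0% of those without it were called higher. Of the tested lysosomal genes with a window, 8 of 9 with the E-box and 17 of 23 without it were called higher. Among the lists of other pathway genes described below, 22.8% of the 92 genes with a window held the E-box and 8.7% the palindrome. The palindrome share was 21.4% in the delivery list, where 20% of tested genes were called higher and 20% lower. It was 5.56% among the other membrane proteins, where 70% were called higher, and 0% to 9.52% in the remaining lists. A match of letters in a window is a description of the sequence and does not show binding. CTSB, CTSS, HEXA, NAGLU, SGSH, PSAP, ASAH1, LAMP2, ATP6V0E1, ATP6V1A, ATP6V1B2, ATP6V1C1 and ATP6V1H were not analysed here for the element.

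Cathepsins, the main proteases of the lysosome, included the only gene of the 45 that was called lower. Of 8 cathepsin genes, 6 were called higher and 1 lower, with a median log2 fold change of 0.58. CTSL, a cysteine endopeptidase encoded at chr9:87725519-87731393 (GRCh38), was at 98.1, 92.6 and 97.2 CPM in DMSO replicates 1, 2 and 3 and at 227, 168 and 258 CPM in the matching WFA replicates. All WFA libraries lay well above the DMSO libraries, which were nearly equal among themselves (log2 fold change 1.18 ± 0.13 SE, adjusted p = 2.12e-06, edgeR). CTSZ, a carboxypeptidase at chr20:58995185-59007247, was at 308, 272 and 239 CPM in DMSO and at 554, 520 and 534 CPM in WFA. That is close to a doubling, with no overlap (0.97 ± 0.10, edgeR adjusted p = 1.44e-06).

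CTSA, a serine carboxypeptidase that also protects beta-galactosidase and sialidase in a common complex, was at 142, 152 and 122 CPM in DMSO and at 222, 226 and 229 CPM in WFA. The WFA values were tightly grouped above all DMSO values (0.70 ± 0.09, edgeR adjusted p = 1.76e-05); 17.7% of its exonic bases are shared with NEURL2 on the opposite strand. CTSD, the main aspartic protease, was at 255, 194 and 223 CPM in DMSO and at 348, 291 and 391 CPM in WFA (0.62 ± 0.12, edgeR adjusted p = 5.14e-04); 41.7% of its exonic bases are shared with another gene model on its strand. CTSB and the aminopeptidase CTSH also rose, by 0.54 and 0.41 on the log2 scale (edgeR adjusted p = 0.00168 and 0.00262).

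CTSC went the other way. This dipeptidyl peptidase, known for activating the serine proteases of immune cell granules, was at 239, 240 and 231 CPM in DMSO and at 205, 191 and 153 CPM in WFA. It fell in each of the 3 experiments (log2 fold change −0.37 ± 0.10, edgeR adjusted p = 0.00761), to 0.774 of its DMSO level. CTSS, which trims the invariant chain of MHC class II, gave −0.07 ± 0.10 (edgeR adjusted p = 0.586), and its groups overlapped.

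**Figure D2:**
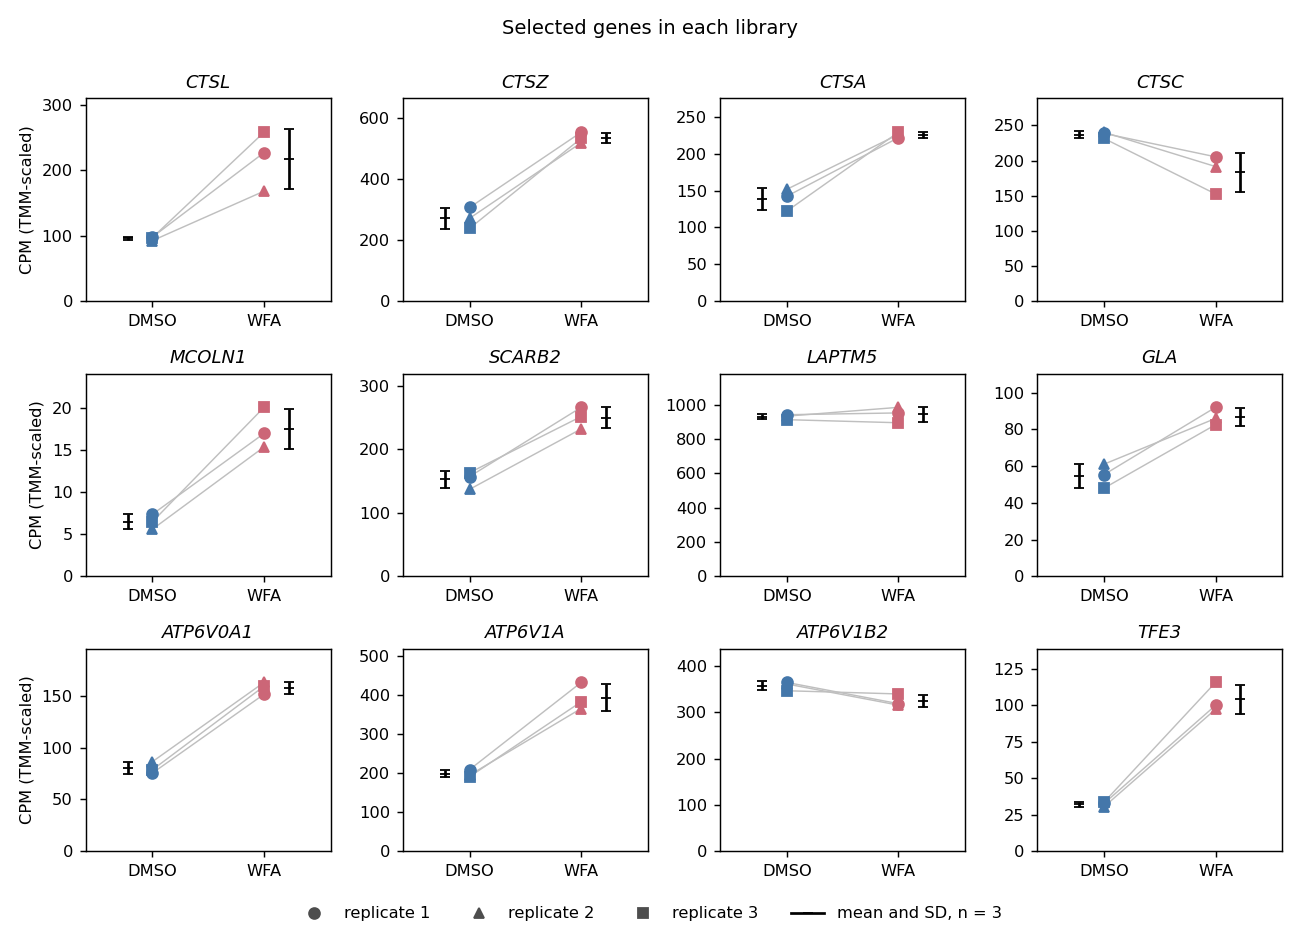
Level (CPM, TMM-scaled, linear axis from 0) of 11 lysosomal genes and TFE3 in each library; symbols mark the replicate, grey lines join libraries of the same replicate number, and black bars give mean and SD (n = 3). CTSL, CTSZ, MCOLN1, ATP6V0A1, ATP6V1A and TFE3 separate fully upward, CTSC and ATP6V1B2 downward, and LAPTM5 overlaps.

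Enzymes that take apart glycans had a lower median than the proteases, a gap that was not tested. Of 9 tested glycosidase and sulfatase genes, 6 were called higher and none lower, with a median log2 fold change of 0.29. GLA, alpha-galactosidase A, was at 55.4, 61.0 and 48.0 CPM in DMSO and at 92.0, 85.9 and 82.5 CPM in WFA (0.66 ± 0.10, edgeR adjusted p = 5.86e-05). IDS, the sulfatase that opens the breakdown of dermatan and heparan sulfate, was at 247, 196 and 256 CPM in DMSO and at 381, 324 and 400 CPM in WFA (0.66 ± 0.11, edgeR adjusted p = 1.71e-04). Both genes separated fully between the groups; IDS has a near copy, IDSP1, with which reads may be split, and CTSL, GUSB, ATP6V0E1, ATP6V1E1 and ATP6V1G1 also have annotated pseudogenes.

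SGSH, heparan N-sulfatase, had few reads: 49, 20 and 19 in DMSO and 71, 41 and 67 in WFA, or 3.45, 1.58 and 1.58 CPM against 5.80, 3.30 and 6.23 CPM. WFA replicate 2 lay below DMSO replicate 1, yet within each experiment WFA was higher (1.18 ± 0.32, edgeR adjusted p = 0.00606). GAA, which degrades lysosomal glycogen, was at 78.1, 75.8 and 62.4 CPM in DMSO and at 81.5, 106 and 99.4 CPM in WFA. Its groups did not overlap, but in experiment 1 the ratio was only 0.06 on the log2 scale (0.40 ± 0.11 over the 3 experiments, edgeR adjusted p = 0.00704). GLB1, beta-galactosidase, and HEXA, a subunit of beta-hexosaminidase, were called higher at 0.29 and 0.26 (edgeR adjusted p = 0.00817 and 0.0279), but HEXA lost its call with 4 of the 6 libraries left out in turn (edgeR adjusted p up to 0.108).

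GUSB (0.16), MAN2B1 (0.19) and NAGLU (−0.01) did not pass (edgeR adjusted p = 0.134, 0.196 and 0.963). MAN2B1, a mannosidase, passed once replicate number entered the edgeR fit as a block (adjusted p = 0.0341), but not in DESeq2 with the same block (adjusted p = 0.174).

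The lipid hydrolases and other lumenal proteins gave log2 fold changes of −0.07 to 0.50. Of 6 genes, 4 were called higher and none lower, with a median log2 fold change of 0.32. SMPD1, acid sphingomyelinase, was at 20.3, 19.3 and 17.7 CPM in DMSO and at 28.1, 24.2 and 29.1 CPM in WFA (0.50 ± 0.12, edgeR adjusted p = 0.00258). GRN, progranulin, was at 440, 421 and 362 CPM in DMSO and at 479, 571 and 570 CPM in WFA (0.40 ± 0.10, edgeR adjusted p = 0.00411). Neither gene overlapped between groups, although GRN rose by 0.12 in experiment 1 against 0.65 in experiment 3.

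PSAP, the precursor of the saposins that present sphingolipids to their hydrolases, was at 453, 398 and 417 CPM in DMSO and at 536, 487 and 574 CPM in WFA (0.33 ± 0.09, edgeR adjusted p = 0.00802). TPP1, a tripeptidyl peptidase, was at 517, 610 and 545 CPM in DMSO and at 628, 711 and 705 CPM in WFA (0.29 ± 0.10, edgeR adjusted p = 0.0203). The groups did not overlap for either, though the changes were small (1.26-fold and 1.22-fold), and TPP1 lost its call without DMSO replicate 1 or WFA replicate 2 or 3 (edgeR adjusted p up to 0.11). Acid ceramidase, ASAH1, stood at the threshold (0.30 ± 0.12, edgeR adjusted p = 0.0505) and passed with the replicate block (edgeR adjusted p = 6.96e-04), while the acid lipase LIPA gave −0.07 (edgeR adjusted p = 0.595).

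Among membrane proteins of the lysosome the response was uneven: 4 of 7 were called higher and none lower, with a median log2 fold change of 0.41. MCOLN1 (TRPML1), a calcium channel of the lysosomal membrane at chr19:7522626-7534009, had the largest change of all 45 genes. It was at 7.39, 5.61 and 6.50 CPM in DMSO and at 17.0, 15.4 and 20.1 CPM in WFA (1.42 ± 0.16, or 2.68-fold, edgeR adjusted p = 3.58e-06). The groups were far apart, with the lowest WFA library at 15.4 CPM and the highest DMSO library at 7.39 CPM, and the ratio was above 1 log2 unit in every experiment.

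CTNS, which exports cystine from the lysosome, was at 8.51, 7.74 and 7.33 CPM in DMSO and at 12.9, 13.5 and 15.0 CPM in WFA (0.80 ± 0.14, edgeR adjusted p = 2.89e-04). SCARB2 (LIMP-2), a membrane protein that also acts as a sorting receptor, was at 157, 137 and 163 CPM in DMSO and at 266, 232 and 252 CPM in WFA (0.71 ± 0.09, edgeR adjusted p = 1.66e-05). LAMP1, one of the most abundant glycoproteins of the lysosomal membrane, was at 247, 222 and 228 CPM in DMSO and at 313, 285 and 330 CPM in WFA (0.41 ± 0.09, edgeR adjusted p = 0.00134). All of these separated fully between the groups.

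LAMP2 (0.04), LAPTM5 (0.02) and the tetraspanin CD63 (0.18) did not pass (edgeR adjusted p = 0.723, 0.852 and 0.115), though CD63 did with the replicate block in edgeR (adjusted p = 0.0321) and not in DESeq2 (adjusted p = 0.103). LAPTM5, a transmembrane protein of blood cell lysosomes, was at 942, 933 and 913 CPM in DMSO and at 952, 985 and 895 CPM in WFA. Its groups overlapped, and per kilobase of exons it had the highest level of the 46 genes, 284 ± 4.55 CPM per kb in DMSO. MCOLN1 stood near the other end of that scale, at 1.64 ± 0.225 CPM per kb in DMSO and 4.42 ± 0.606 in WFA.

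Most V-ATPase genes were called higher. Of its 15 genes, 12 were called higher and none lower, with a median log2 fold change of 0.52, and their summed level was 1979 ± 106 CPM in DMSO and 2748 ± 84.1 CPM in WFA (SD, n = 3). Of the 7 genes of the membrane sector V0 and its accessory proteins, 5 were called higher. ATP6V0A1, an isoform of the subunit a that forms the proton half-channels (chr17:42458844-42522611), was at 75.4, 86.4 and 78.6 CPM in DMSO and at 151, 163 and 159 CPM in WFA. It came close to a doubling in every experiment (0.98 ± 0.09, edgeR adjusted p = 3.24e-07). ATP6V0C, the main proteolipid of the rotating ring, was at 102, 106 and 89.3 CPM in DMSO and at 154, 176 and 175 CPM in WFA (0.77 ± 0.09, edgeR adjusted p = 7.81e-06). For ATP6V0C, 57.5% of the exonic bases are shared with a read-through gene model on its strand, and processed copies exist elsewhere in the genome.

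ATP6V0B, another proteolipid of the ring, was at 137, 155 and 117 CPM in DMSO and at 176, 216 and 205 CPM in WFA (0.54 ± 0.11, edgeR adjusted p = 7.37e-04). ATP6V0D1, the link between ring and central stalk, was at 84.9, 84.6 and 72.7 CPM in DMSO and at 104, 106 and 115 CPM in WFA (0.43 ± 0.09, edgeR adjusted p = 0.0011). The groups did not overlap for either. Of the accessory proteins, ATP6AP1 was called higher at 0.42 (edgeR adjusted p = 0.00222). ATP6AP2, the prorenin receptor, gave 0.26 (edgeR adjusted p = 0.0955, and 0.00333 with the replicate block), and the small subunit ATP6V0E1 gave 0.21 (edgeR adjusted p = 0.0636, and with the replicate block 0.0149 in edgeR and 0.0772 in DESeq2).

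In the cytosolic sector V1, 7 of 8 genes were called higher, with a median log2 fold change of 0.56. ATP6V1A, the catalytic subunit that hydrolyses ATP (chr3:113747019-113812056), was at 209, 195 and 191 CPM in DMSO and at 432, 365 and 382 CPM in WFA (0.99 ± 0.09, edgeR adjusted p = 5.52e-07). ATP6V1C1, a V1 subunit at the junction with V0, was at 158, 150 and 158 CPM in DMSO and at 300, 237 and 251 CPM in WFA (0.76 ± 0.10, edgeR adjusted p = 1.27e-05). ATP6V1F, of the central stalk, was at 56.6, 59.7 and 49.7 CPM in DMSO and at 81.5, 83.8 and 85.9 CPM in WFA (0.60 ± 0.09, edgeR adjusted p = 7.47e-05). The WFA libraries of all 3 genes lay above every DMSO library. ATP6V1F shares 23.7% of its exonic bases with KCP on the opposite strand, which the library kit does not tell apart.

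ATP6V1G1, of the peripheral stalk, was at 97.6, 93.2 and 94.2 CPM in DMSO and at 134, 139 and 131 CPM in WFA (0.50 ± 0.08, edgeR adjusted p = 1.02e-04). ATP6V1D, ATP6V1H and ATP6V1E1 rose by 0.62, 0.52 and 0.35 (edgeR adjusted p = 3e-04, 1.98e-04 and 0.00257). The exception was ATP6V1B2, the B subunit that alternates with subunit A in the catalytic head: it was at 364, 360 and 346 CPM in DMSO and at 318, 315 and 339 CPM in WFA. Every WFA library lay below every DMSO library, but the difference did not pass (−0.14 ± 0.08, edgeR adjusted p = 0.18). Per kilobase of exons, ATP6V1A went from 38.7 ± 1.85 to 76.6 ± 6.74 CPM per kb and ATP6V1B2 from 45.6 ± 1.22 to 41.4 ± 1.67; the difference between the responses of these subunits was not tested.

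Most V-ATPase subunits with tissue-specific paralogs were represented by the ubiquitous isoform. ATP6V1B1, ATP6V1C2, ATP6V1E2, ATP6V0D2 and ATP6V0E2 lay between 0.297 and 3.53 CPM per kb in DMSO, and ATP6V0A4, ATP6V1G2 and ATP6V1G3 had at most 1 read in any library. For subunit a, TCIRG1 (a3), the isoform known from osteoclasts and immune cells, had the highest DMSO level per kilobase of exons among the 3 detected isoforms. It was at 11.05 ± 1.47 CPM per kb, against 7.31 ± 0.516 for ATP6V0A1 and 3.98 ± 0.275 for ATP6V0A2. With WFA the values were 13.5 ± 2.64, 14.4 ± 0.532 and 3.71 ± 0.204. The DMSO order rests on division by the union of annotated exons. In CPM without that division, ATP6V0A1 was highest in DMSO at 80.1, against 54.6 for ATP6V0A2 and 48.4 for TCIRG1. Only ATP6V0A1 of these 3 was called; TCIRG1 gave 0.29 (edgeR adjusted p = 0.094, and 0.00625 with the replicate block, 0.00812 without WFA replicate 1 and 0.046 without DMSO replicate 2) and ATP6V0A2 −0.10 (edgeR adjusted p = 0.402).

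**Figure D3:**
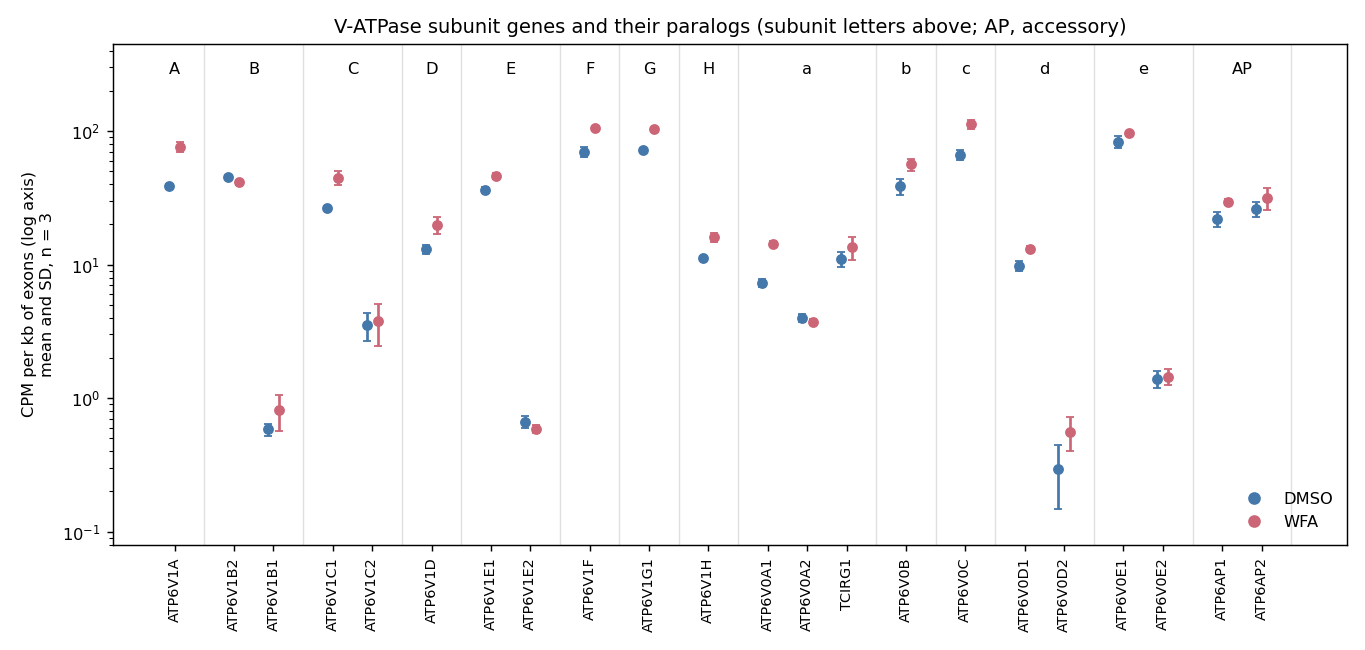
Level (CPM per kb of exons, log axis; mean and SD, n = 3) of V-ATPase subunit genes and their paralogs in DMSO (blue) and WFA (red), grouped by subunit. ATP6V1A and ATP6V0A1 show the widest gaps among the ubiquitous subunits, whereas ATP6V1B2 is slightly lower with WFA.

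The 3 experiments agreed in direction for most genes but differed in size. Within experiments, WFA was above DMSO in all 3 for 37 of the 45 genes and below in all 3 for CTSC, LIPA and ATP6V1B2. Among all 12854 genes tested, 4853 were above in all 3 experiments and 4638 were below in all 3, so a shared direction was common in these data. The median log2 ratio of the 45 genes was 0.36 in experiment 1, 0.36 in experiment 2 and 0.62 in experiment 3, where the medians over all genes tested were 0.01, 0.01 and 0.03. For 32 of the 45 genes the largest ratio was that of experiment 3; the matching share of all genes tested was not worked out. The largest ratio was that of experiment 1 for 8 genes and that of experiment 2 for 5. Among these genes, SCARB2, ATP6V1A and ATP6V1C1 had ratios in experiment 3 of 0.62, 1.00 and 0.66 against 0.76, 1.05 and 0.92 in experiment 1.

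**Figure D4:**
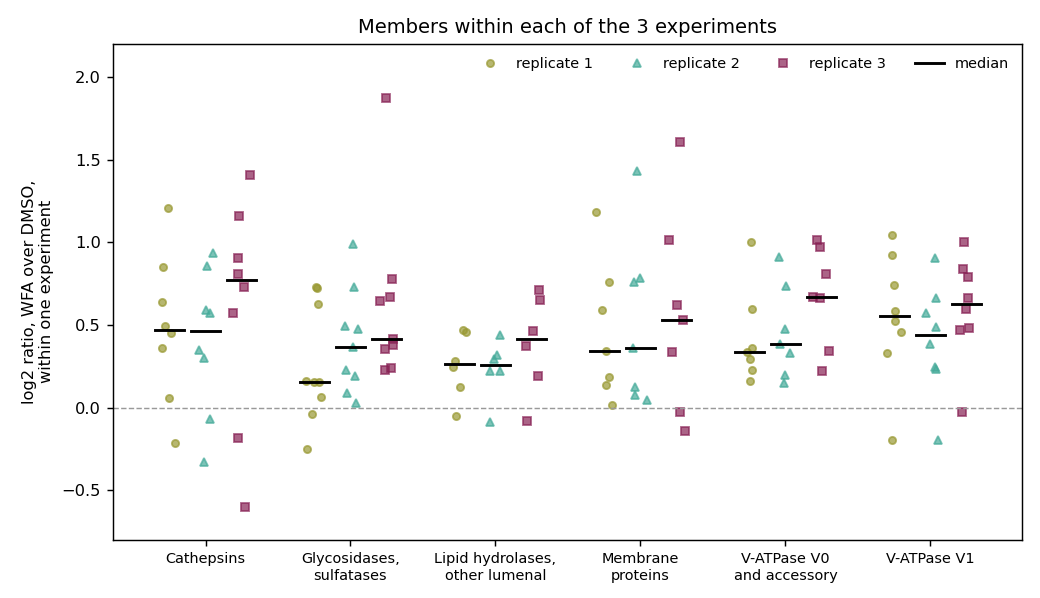
Log2 ratio of WFA over DMSO within each of the 3 experiments (replicate numbers 1 to 3) for the 45 tested lysosomal genes by functional class; black lines are medians of a class in 1 experiment. The medians of replicate 3 are the highest in all 6 classes.

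Genes outside the 46 that serve the same organelle were examined as 6 lists, 126 genes in all. The tested genes numbered 115, of which 45 were called higher (39.1%) and 13 lower (11.3%), and their log2 fold changes had a median of 0.18. Of the 24 genes for the TFEB family and its control by mTORC1, 12 were called higher and 1 lower (median 0.33). TFE3 was at 32.9, 30.6 and 33.7 CPM in DMSO and at 100, 97.4 and 116 CPM in WFA. Its 3.22-fold increase exceeded that of every tested lysosomal gene above (1.69 ± 0.10, edgeR adjusted p = 3.99e-09). TFEB itself was at 25.1, 24.6 and 22.7 CPM in DMSO and at 26.8, 31.5 and 34.4 CPM in WFA (0.35 ± 0.12, edgeR adjusted p = 0.0208); the call was lost without DMSO replicate 2 or 3 or WFA replicate 3 (edgeR adjusted p up to 0.0922). MITF (0.07) and TFEC (−0.15) did not pass (edgeR adjusted p = 0.797 and 0.285).

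Upstream of these factors, TSC1, part of the complex that restrains mTORC1, rose by 0.70, and LAMTOR3 and RRAGC, parts of the platform that docks mTORC1 on the lysosome, rose by 0.57 and 0.67 (edgeR adjusted p = 8.66e-06, 7.22e-05 and 8.27e-05). RPTOR, the subunit of mTORC1 that recognises substrates, was the only gene of the list called lower (−0.46, edgeR adjusted p = 0.0013).

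The list of other membrane proteins of the lysosome gave a share much like that of the 46 genes: 14 of 20 tested were called higher (70.0%) and 2 lower, with a median log2 fold change of 0.46. These counts include NPC2, a soluble protein of the lumen, which was called higher. SIDT2, a nucleic acid transporter, rose from 18.8 to 21.0 CPM in the DMSO libraries to 53.3 to 57.6 CPM in WFA (1.45 ± 0.10, edgeR adjusted p = 2.7e-08). NPC1, which exports cholesterol, rose from 39.0 to 44.9 CPM to 92.9 to 123 CPM (1.40 ± 0.11, edgeR adjusted p = 8.91e-08). CLN3 and the sialic acid transporter SLC17A5 rose by 1.31 and 0.76 (edgeR adjusted p = 4.42e-07 and 8.25e-06). TPCN1, a two-pore cation channel, was called lower (−0.47, edgeR adjusted p = 3.63e-04), as was TMEM192 (−0.23, edgeR adjusted p = 0.0492), which lost the call whichever library was left out.

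The remaining hydrolases lay closer to the background of all genes. Of 30 tested, 10 were called higher (33.3%) and 3 lower, with a median log2 fold change of 0.14. CTSK, a collagen-degrading cathepsin, rose by 1.19 from 2.60 to 4.83 CPM in the DMSO libraries, SMPDL3A, a phosphodiesterase, by 0.83, and PLBD2 by 0.48 (edgeR adjusted p = 5.75e-04, 2.43e-04 and 0.00213). HYAL2, a hyaluronidase, fell by 0.60 on the log2 scale, and GALC, galactosylceramidase, by 0.28 (edgeR adjusted p = 0.00871 and 0.0257). Since the 46 genes were picked with results of these libraries in view, the gap between them and the other hydrolases was not tested.

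Among further V-ATPase-related genes and delivery genes the shares called were near those of all genes tested (25.8% higher, 24.7% lower). Of 16 tested paralogs and assembly factors of the V-ATPase, 4 were called higher and 3 lower (median 0.11): TMEM199, TLDC1 and NCOA7 rose by 0.76, 1.16 and 0.82 (edgeR adjusted p = 7.38e-06, 7.6e-06 and 1.49e-05), while DMXL2, a factor that loads V1 onto V0, and VMA21, which assembles V0, gave −0.85 and −0.39 (edgeR adjusted p = 1.67e-05 and 0.00331). Of 20 tested genes that bring enzymes to the lysosome, 4 were called higher and 4 lower (median −0.02). IGF2R, the large mannose 6-phosphate receptor, rose by 0.67, and GNPTG and NAGPA, which build the mannose 6-phosphate tag, by 0.55 and 0.74 (edgeR adjusted p = 4.68e-04, 8.6e-04 and 0.00136). The adaptors GGA2 and AP3D1 gave −0.47 and −0.27 (edgeR adjusted p = 7.2e-04 and 0.014). Of 5 tested inhibitors of cathepsins, CSTB (cystatin B) alone passed, at 0.63 (edgeR adjusted p = 1.13e-04), whereas CSTA gave 0.09 (edgeR adjusted p = 0.484). With the replicate block, CST3 (0.21) and SERPINB1 (−0.21) passed as well (edgeR adjusted p = 0.0155 and 0.0307).

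**Figure D5:**
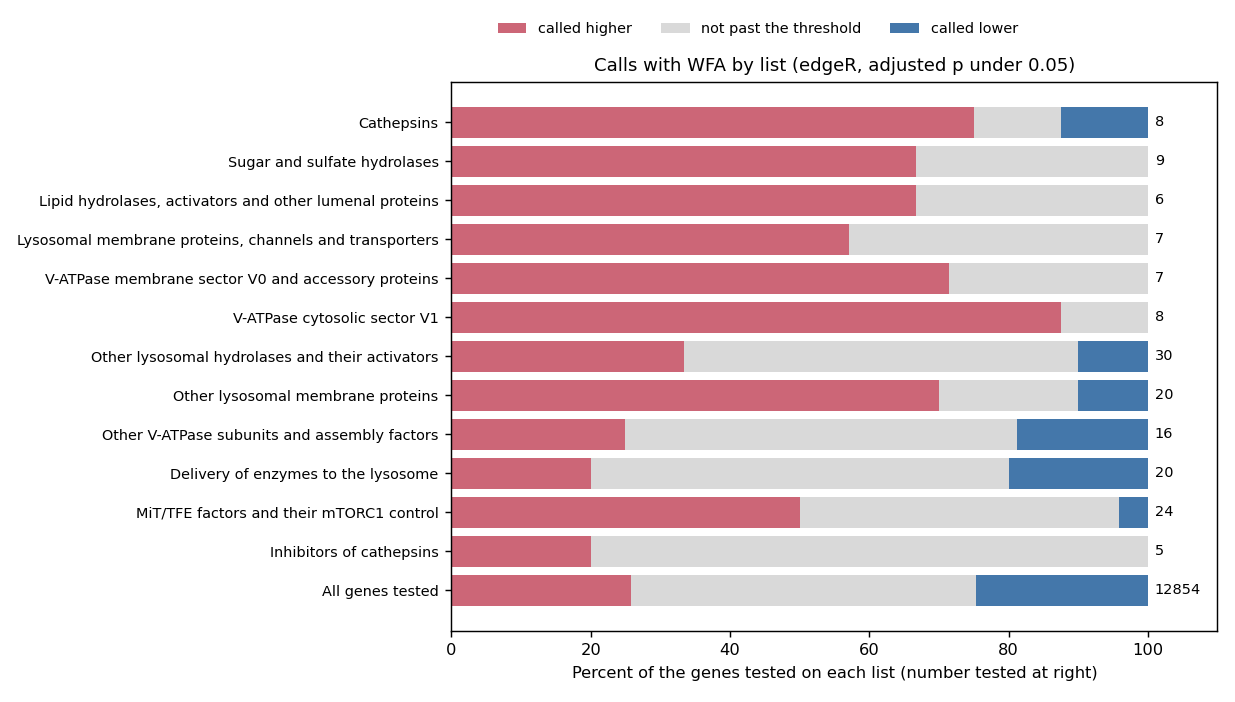
Percent of tested genes called higher (red), not passed (grey) or called lower (blue) with WFA in each class of the 46 lysosomal genes, in the 6 lists of other pathway genes and among all 12854 genes tested (numbers tested at right). The classes range from 57.1% to 87.5% called higher, against 25.8% of all genes.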

How the data were processed

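THP1 RNA was extracted with a column kit and sequenced from TruSeq RNA v2 libraries, a kit that does not mark strand. Per the labels and the submitters' processing notes, reads were prepared with bcl2fastq 2.19 and Trimmomatic and aligned to hg38 with Bowtie2. They were counted per gene with featureCounts, and Picard is also named among the tools. Versions other than that of bcl2fastq, and counting options, are not given in the sources used here. The authors deposited whole-number counts per gene, used here as deposited; scaled values and the authors' own comparison (fold changes and p-values) in the same table were not used.

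Counts were analysed with edgeR 4.0.16 (R 4.3.3): filterByExpr (minimum count 10), TMM scaling, glmQLFit and glmQLFTest with group alone. This main fit left out the pairing of the samples. With replicate number as a block, 37 lysosomal genes were called higher and 1 lower. Adjusted p-values (Benjamini-Hochberg, threshold 0.05) cover all genes tested. The code was checked on simulated counts. Replicate numbers pair the samples: the labels give each number 1 shared date code, and deviations from the group means correlated at 0.217, 0.333 and 0.245 within numbers. No 2 libraries of the same group agreed within sampling noise. Levels per kb divide CPM by the union of GENCODE exons (GRCh38). DESeq2 1.42.0 and limma 3.58.1 served as alternatives.

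The members and lists were chosen with earlier results of these data known. Values in every library are given, per class, for the 4 genes with the smallest p and the largest change; CTSC, ATP6V1B2 and LAPTM5 were added after their values were seen. Of other lists, up to 4 genes with the smallest p, up to 2 called against the majority, and TFEB, TFE3, MITF, TFEC and TCIRG1 are named, apart from an item that is not reported here; CSTA, SERPINB1, CST3 and the subunit a, B, C, d, E, e and G paralogs complete them.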

Additional observations from a re-analysis of the deposited data

How the results depend on the processing

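Over 16 of the 17 alternatives (other scalings, filters, tools, the replicate block and each library left out), 30 to 37 lysosomal genes were called higher, and the median log2 fold change stayed between 0.34 and 0.48. The exception was a test against a 1.5-fold change, which called 5 higher (CTSL, CTSZ, MCOLN1, ATP6V0A1 and ATP6V1A), 0 lower and 5 in all; over all genes it called 1114 higher and 812 lower against 3311 and 3178. The replicate block called 37 higher and 1 lower, and besides the calls named above it changed no call of a lysosomal gene; the same block in DESeq2 called 34 higher, with ASAH1 (adjusted p = 0.00851) and ATP6AP2 (0.0153) as its added calls. Scaling by total counts called 2 lower, as ATP6V1B2 passed (−0.22, edgeR adjusted p = 0.0337), and turned the uncalled values of LAMP2 (−0.041), LAPTM5 (−0.0625) and MITF (−0.0138); the stricter low-count filter turned NAGLU (0.0036).

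With 1 library left out, 30 to 32 genes were called higher and 1 lower, 31 to 33 in all, and the median ran from 0.36 to 0.48. Uncalled genes that turned sign were NAGLU (−0.115 to 0.0828), LIPA (−0.168 to 0.0133), LAMP2 (−0.0125 to 0.136), LAPTM5 (−0.0086 to 0.0622) and MITF (−0.159 to 0.235). HEXA lost its call without DMSO replicate 1 or 3 or WFA replicate 2 or 3 (edgeR adjusted p = 0.0897, 0.108, 0.0815 and 0.0761), with total counts (0.125) and with DESeq2 (0.0519), and TPP1 without DMSO replicate 1 or WFA replicate 2 or 3 (edgeR adjusted p = 0.11, 0.0685 and 0.0514) and with total counts (0.0796). ASAH1 gained one without WFA replicate 2 (edgeR adjusted p = 0.0085), and ATP6AP2 without DMSO replicate 1 or WFA replicate 2 (0.0382 and 0.0485). TFEB lost its call with total counts (edgeR adjusted p = 0.0703) and without DMSO replicate 2 or 3 or WFA replicate 3 (0.0524, 0.0732 and 0.0922), GALC without DMSO replicate 1 or 3 or WFA replicate 3 (0.0722, 0.116 and 0.0651) and AP3D1 without DMSO replicate 1 (0.0609); TCIRG1 gained one without WFA replicate 1 or DMSO replicate 2 (0.00812 and 0.046) and SERPINB1 without WFA replicate 2 (0.0312) and with total counts (0.0239). The causes were not tested. SGSH rests on at most 71 reads a library, and NEU1, with 1 read in all, was not tested.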

Other observations

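PPT1, the palmitoyl protein thioesterase of the lysosome, was chosen after its values were seen. It had 96111 to 137173 reads per library, the third highest mean level of all 26485 gene symbols. That equals 0.84% to 1.01% of all counts and 84.1% to 114% of the summed level of the 46 lysosomal genes in the same library. Per kilobase of exons it stood at 1803 ± 200 CPM per kb in DMSO and 1961 ± 99.6 in WFA (SD, n = 3), where LAPTM5, the highest of the 46, was at 284 in DMSO. It did not differ past the threshold (log2 fold change 0.12 ± 0.12, edgeR adjusted p = 0.415). How reads that match several places were counted is not given, and whether all these reads come from PPT1 transcripts was not tested.

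Several genes of the pathway were listed at or near 0 in these libraries. CTSO and CLN8 had 0 reads in all 6 libraries, and NEU1 had 1 read in all 6 together. ACP5, the tartrate-resistant acid phosphatase of osteoclasts and macrophages, had 1 to 3 reads per library. No direction can be given for any of these genes.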
